A study of Mus musculus with 2 samples.

Results

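The Alg genes (asparagine-linked glycosylation) encode enzymes that build the sugar precursor of N-glycans, and 10 of them were described here: Alg1, Alg2, Alg3, Alg5, Alg6, Alg8, Alg9, Alg11, Alg12 and Alg14. They were chosen by name, with the value of Alg8 already known from these arrays, and their probes were found through the RefSeq accession that the scanner files give for each spot. All 10 were well above background on both arrays, among 14178 measured genes of 20887 named ones. They were read by 11 probes in 20 spots, because Alg14 was printed 10 times and Alg6 had 2 probes.

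The cells were primary pericytes of the C57BL/6 mouse penis, from its cavernous part, cultured with serum and human pigment epithelium-derived factor. Both groups shared that culture and differed in glucose, labelled 5 mmol for normal and 30 mmol for high glucose with no volume stated, for 72 h. Each condition is a pool of RNA from 3 samples on 1 Agilent array in 1 colour, so each condition is 1 measurement. No osmotic control was used here. No p-value can be given, and the number of arrays limits the precision. Every comparison below is between these pools and has no replicate check.

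N-glycans are assembled on the lipid dolichol at the membrane of the endoplasmic reticulum before they are passed as a block to newly made proteins. The early sugars are added on the cytosolic face, the lipid carrier is then turned into the lumen, and the lumenal enzymes complete the mannose branches and cap one of them with glucose. The glucose cap helps the oligosaccharyltransferase to choose complete precursors, and its removal afterwards is read by the lectin chaperones calnexin and calreticulin. Inherited loss of many of these enzymes causes congenital disorders of glycosylation in people.

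Alg8 stood apart from the other Alg genes: its signal was 4.33-fold higher in high than in normal glucose, while the other 9 lay at most 1.06-fold from equality in either direction. Alg8 adds the second glucose of the cap. Alg6, which adds the first glucose just before it, and Alg5, which makes the lipid-bound glucose that both enzymes use, had log2 ratios of 0.06 and -0.06. A fold or log2 ratio here is high over normal glucose after each array was scaled to its 75th percentile. That percentile was 774 for normal and 733 for high glucose. A log2 ratio of 0 thus means equal scaled signals and 1 means 2-fold. Signals are given unscaled throughout, so their plain quotient differs somewhat from the ratio beside them. The Alg8 value was among those for which the genes were chosen, so it is a description and not a test.

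The sequence before the start of Alg8 is shown beside that of Alg6, the enzyme of the preceding step, because their signals differed in behaviour between the arrays. Both come from the RefSeq promoter table of build GRCm38.p6, which held 8 of the 10 genes. Alg8 is on the plus strand of chromosome 7, with the bases from chr7:97371367-97371566, and Alg6 on the plus strand of chromosome 4, with chr4:99715380-99715595. Each run ends at the base before the annotated gene. Capitals mark matches on either strand to the GC box GGGCGG or the antioxidant response element TGACNNNGC. None of the other motifs searched, which are spelled out in the next paragraph, was found in either stretch. In Alg6, 1 GC box runs into the antioxidant response match.
Alg8: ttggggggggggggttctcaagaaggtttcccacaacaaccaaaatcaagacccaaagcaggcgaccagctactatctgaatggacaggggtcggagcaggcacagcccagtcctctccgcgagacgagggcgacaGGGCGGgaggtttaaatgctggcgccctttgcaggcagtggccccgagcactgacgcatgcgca
Alg6: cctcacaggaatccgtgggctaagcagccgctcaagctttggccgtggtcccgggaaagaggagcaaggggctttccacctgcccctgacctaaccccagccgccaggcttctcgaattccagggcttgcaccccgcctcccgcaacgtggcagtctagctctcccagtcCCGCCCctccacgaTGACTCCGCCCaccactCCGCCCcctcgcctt

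Alg8 had 1 match, a GC box that begins 64 bases before the gene. Alg6 had 3 GC boxes and 1 antioxidant response match. GC boxes were found in 6 of the 8 Alg promoters, counted over the full 300 bases of each, and in 35.7% of all 32851 promoters of that length. The antioxidant response element was in 4 of the 8 and in 12.4% of all, and the CCAAT box, searched as CCAAT, in 4 of the 8 and in 37.4% of all. Neither stretch held the E-box, searched as CACGTG. Alg1 was the only one of the 8 with it, and 7.15% of all promoters held it. The endoplasmic reticulum stress element, which factors of the unfolded protein response bind, was searched for as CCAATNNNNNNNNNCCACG. It was found in Alg12 alone of the 8, and in 0.119% of all promoters. That match reads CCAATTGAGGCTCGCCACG, lies at chr15:88819520-88819538 on the minus strand and begins 220 bases before the start of the transcript. Its CCAAT also counts as a CCAAT box. The unfolded protein response element TGACGTGG was in none of the 8, and in 0.676% of all promoters. These are matches of letters only, and no share was adjusted for base content. G and C made up from 44.7% (Alg3) to 76% (Alg5) of the 8 promoters, with 62.3% for Alg8 and 68% for Alg6. The median over all promoters was 52.7%.

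**Figure D1:**
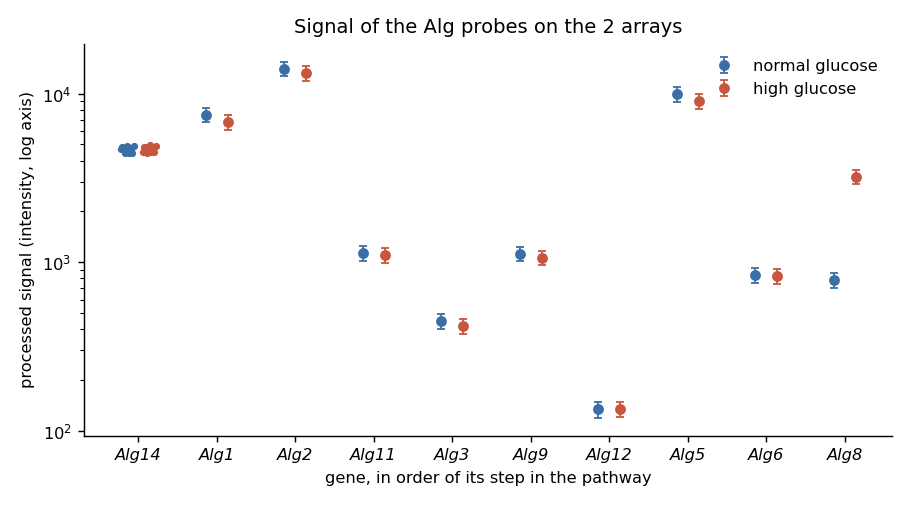
Processed signal before scaling (intensity, log axis) of the brightest probe of each Alg gene on the normal glucose (blue) and high glucose (red) array. Genes are ordered by their step. Bars are the scanner software's error estimate for 1 spot, and the 10 spots of Alg14 are drawn singly; the 2 values of each gene lie close together except those of Alg8, at 785 and 3218.

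On the cytosolic face, signals were close to equal. Alg14 anchors the transferase that adds the second N-acetylglucosamine, with Alg13 as its catalytic partner. Its 10 spots ran from 4418 to 4881 in normal glucose, with a median of 4735, and from 4439 to 4978 in high glucose, with a median of 4648. Before scaling, the arrays overlapped over nearly the whole range, with 5 spots higher and 5 lower in high glucose. After scaling, all 10 ratios were above 0. The 10 spot ratios were spread between 0.02 and 0.14 on the log2 scale, with a mean of 0.08 ± 0.04 (SD, n = 10 spots of 1 array pair), so this SD is the error of printing and scanning and not of the cells. Alg1, which adds the first mannose, had signals of 7500 in normal and 6776 in high glucose and a log2 ratio of -0.07. Alg2, the next mannosyltransferase, had 14059 and 13256, a log2 ratio of -0.005. Alg11, which adds the last mannoses on this face, had 1131 and 1105, a log2 ratio of 0.05. Signals of different probes depend on the probe and were not set against each other.

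The lumenal mannosyltransferases did not separate between the arrays either. Alg3 adds the first mannose in the lumen and had signals of 447 in normal and 419 in high glucose, a log2 ratio of -0.01. Alg9, which acts on both later branches, had 1123 and 1064, a log2 ratio of 0.002. Alg12, which adds the mannose that opens the last branch, had 134 on each array, a log2 ratio of 0.09. After scaling, the Alg12 difference was 0.39 times the combined scanner error of its spots.

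Among the glucosylation genes, only Alg8 differed beyond the scanner error. Alg5 had signals of 9921 in normal and 9001 in high glucose. Alg6 had 835 and 822 from its brighter probe, and 62.3 and 55.6 from its dim second probe, whose log2 ratio was -0.09. The probes of Alg6 thus lay on opposite sides of 0, both within 1.1-fold in size. Alg8, read by the single probe A_55_P2054300, had 785 ± 78.8 in normal and 3218 ± 322 in high glucose, where ± is the scanner software's error for 1 spot. The difference for Alg8 was 7.49 times the combined error of its 2 spots. For the other 8 genes read by a single spot it was at most 0.39 times. For most of these spots the error was nearly in proportion to the signal, so this multiple largely restates the fold. It is no separate check of whether a single spot strayed. Over the 13909 measured genes read by 1 spot, 15.7% differed by at least their combined error.

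Most genes on these arrays were also close to equal, which sets the scale for the group. At 2-fold, 1 of the 10 Alg genes was past the threshold, Alg8, where 0.917% of all measured genes were, 0.501% higher and 0.416% lower. At 1.2-fold it was again Alg8 alone, where 12.3% of all genes were. The rule used these ratios, so nothing is read from the shares. The median log2 ratio was 0.02 over the 10 genes and 0.002 without Alg8, against -0.007 over all measured genes. The 9 other Alg genes ran from -0.07 for Alg1 to 0.09 for Alg12. All genes had an SD of 0.24, but their quartiles were -0.08 and 0.07, about the range that the 9 covered. Of the 9, 4 were below 0 with the main scaling and 7 after centring each array on its median, and 53.2% of all genes were below 0 with the main scaling. Alg2, Alg6, Alg9 and Alg11 changed sign under at least 1 of the 10 alternatives, while Alg1, Alg3 and Alg5 stayed below 0 and Alg12 and Alg14 above 0 under all 10.

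Alg8 had the 8th highest ratio of all 14178 genes. Of the 71 genes at least 2-fold higher, 44 had a mean signal below 128, where single spots are least precise. Among the 4876 genes with a mean signal from 512 to 4096, where Alg8 lies, 0.185% were at least 2-fold higher, 9 genes in all. Alg8 was the next highest of these after Ext2, a heparan sulphate polymerase whose log2 ratio was 2.96, and Epha1, an ephrin receptor, followed it at 1.72.

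**Figure D2:**
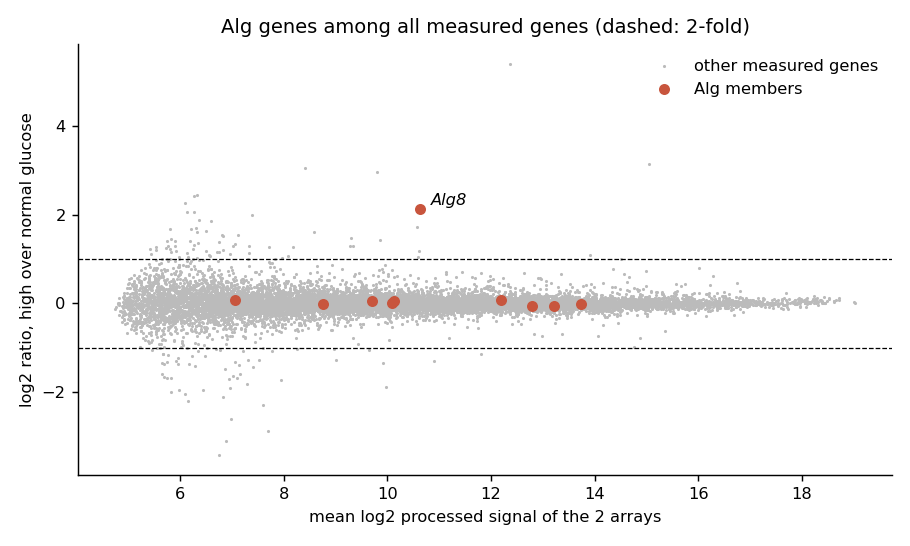
Log2 ratio of high over normal glucose against the mean log2 processed signal of the arrays, 1 point per measured gene (grey), with the 10 Alg genes in red and 2-fold marked by dashed lines. Alg8, at a log2 ratio of 2.12, lies above the band of genes of its brightness, and the other 9 Alg genes lie between -0.07 and 0.09.

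Because Alg8 rests on 1 spot per array, the spot itself was looked at. Its median pixel was 760 in normal and 2984 in high glucose over a local background of 32 on both arrays, and the log2 ratio from median pixels less background was 2.09, close to the 2.12 of the processed signal. It carried no flag, like the other 19 Alg spots. The population outlier flag was set on 296 gene spots, all of probes printed more than once and none on the 55249 probes printed once, so the absence of that flag says nothing about Alg8. Over the 11 dim spots within 2 rows and columns, the median pixel ratio was shifted by -0.14 from that of all dim spots, and the 12 spots there that were well above background on both arrays had a median log2 ratio of -0.04. None of those 12 was past 2-fold. Among the 11 dim spots, the one next to Alg8 in the same row was well above background in normal glucose only and was past 2-fold the other way, at -1.03 in median pixels on that scale and a log2 ratio of -3.22 in processed signal. Control spots were left out of these counts. A control spot 2 rows and 1 column away was well above background on neither array. It was at 0.70 in median pixels on that scale and had a log2 ratio of 2.08 in processed signal. Whether either of these spots bears on the Alg8 value was not tested.

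In a wider window of 8 rows and 12 columns around Alg8, chosen after its values were seen, 6 of 397 gene spots differed by at least 2-fold in median pixels, 2 higher and 4 lower. That is 1.51% of them, against 1.83% over the whole array. The 4 lower spots, the one beside Alg8 among them, ran from -2.48 to -1.03. The higher of the 2 higher spots, of an unnamed probe 5 rows and 6 columns away and well above background on both arrays, was at 1.80 in median pixels and had a log2 ratio of 2.12 in processed signal, like Alg8. The other was a spot of Ppwd1, a spliceosome-associated isomerase printed 10 times, which lay 2 rows and 6 columns from Alg8. That spot had signals of 133 in normal and 485 in high glucose, a log2 ratio of 1.94, while the 9 other Ppwd1 spots ran from -0.31 to 0.35. A single spot close to Alg8 thus differed strongly between the arrays where the other copies of the same probe did not. Whether this touches the Alg8 spot was not tested.

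**Figure D3:**
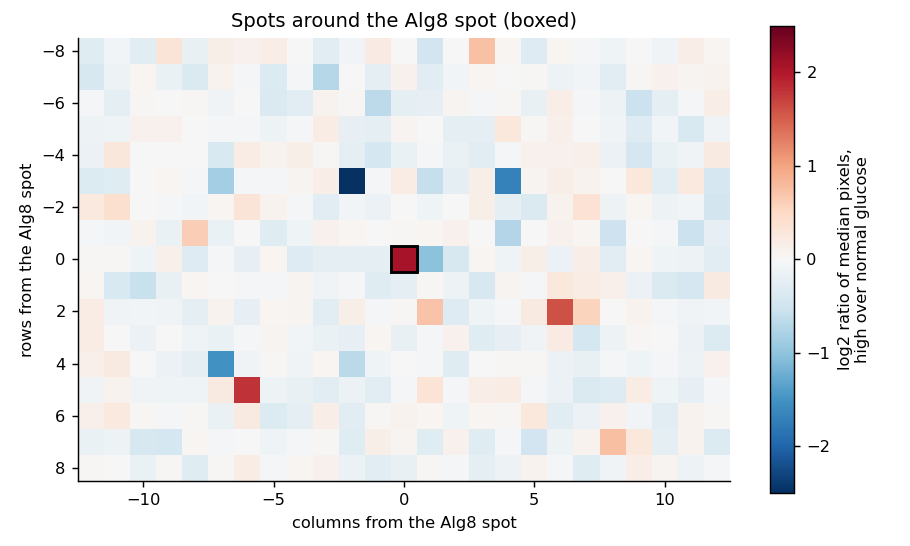
Log2 ratio of median pixels, high over normal glucose, for each spot within 8 rows and 12 columns of the Alg8 spot (boxed), less the median over all dim spots; red is higher and blue is lower in high glucose. The Alg8 spot, at 2.06, stands among mostly pale spots, with single spots of strong colour scattered around it and the red Ppwd1 spot 2 rows and 6 columns away.

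How far a single spot can stray was read from 283 measured probes printed 10 times. From a mean signal of 512 to 4096, the spot-to-spot SD of the log2 ratio was 0.044 at the median of 101 probes, and 1 of 1010 spots (0.099%) lay at least 2-fold from the median of its probe. That spot belonged to Mns1, which was 2.04 below its probe on the log2 scale. Its median pixel ratio was only -0.24 against -1.87 from the processed signal, and the software had flagged it. The Ppwd1 spot, from a dimmer probe, was 1.77 above its probe with a median pixel ratio of 1.77, and was flagged too. Mns1 and Ppwd1 were singled out after their values were seen. Of 19 spots in all that lay at least 2-fold from their probe, 16 were flagged and 15 belonged to probes with a mean signal below 128.

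Some spots of other Alg genes lay in more uneven parts of the slide than the Alg8 spot. The Alg14 spot whose 9 dim neighbours were shifted by 0.94 had a log2 ratio of 0.02, the lowest of its 10. Around Alg1, 9.23% of gene spots differed by at least 2-fold in median pixels, and Alg1 itself had a median pixel log2 ratio of -0.09.

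**Figure D4:**
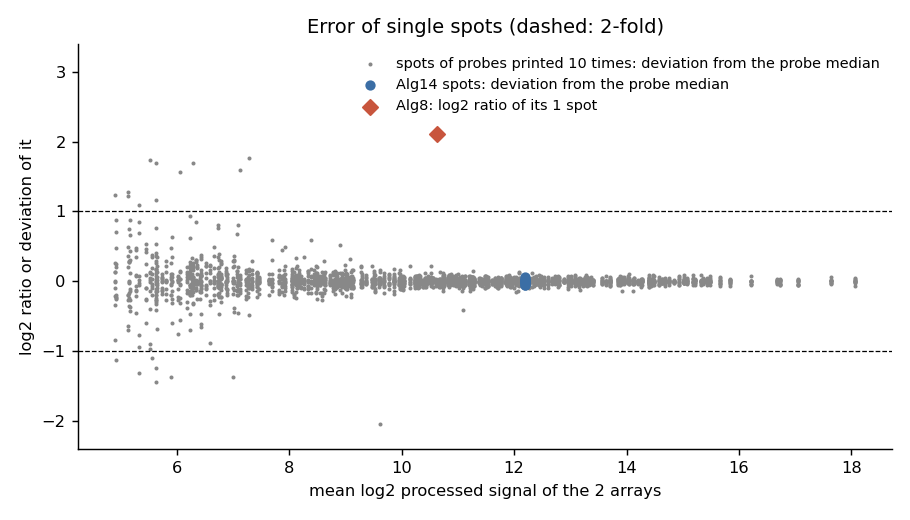
Deviation of single spots from the median log2 ratio of their probe, for 283 probes printed 10 times (grey) and for Alg14 (blue), against the mean log2 processed signal of the arrays, with the log2 ratio of the single Alg8 spot (red diamond). Deviations past 2-fold (dashed) are mostly those of dim probes, and 1, at -2.04, belongs to a probe with a mean signal from 512 to 4096, like Alg8.

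The rest of the N-glycan pathway was, like most measured genes, close to equal on both arrays. Of 54 genes in 6 lists of neighbouring steps, all were measured and none was past 2-fold in either direction. Over all measured genes 0.917% were, so none among 54 does not set the pathway apart. The median log2 ratio was 0.005, with 28 genes above 0 and 26 below. At 1.2-fold, 1 of the 54 was past the threshold, where 12.3% of all measured genes were. It was Mgat4a, a Golgi branching enzyme, at 0.31 from dim signals of 40.1 in normal and 47.0 in high glucose. Among the 49 with a mean signal of at least 512 it was 0, where 4.38% of all 9587 genes that bright were past 1.2-fold. The highest of the 49, Uggt1, was just under the threshold at 1.19995-fold, so that 0 rests on a very small margin.

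Genes of the same assembly line as the Alg enzymes lay between -0.05 and 0.14. Dpagt1, which starts the chain and is the target of tunicamycin, had signals of 10647 in normal and 10518 in high glucose. Alg10b, which adds the last glucose after Alg8, had 1864 and 1700 and the lowest log2 ratio of these 4, -0.05. Alg13, the partner of Alg14, had the highest, 0.14, from 474 and 492, and its dimmer second probe gave -0.10. The steps directly before and after Alg8 were thus both within 1.1-fold.

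The supply of the lipid carrier showed 1 larger value. Mpdu1, which lets the lumenal enzymes use dolichol-bound mannose and glucose, had signals of 6246 in normal and 6882 in high glucose, a log2 ratio of 0.22, and its second probe gave 0.16. Srd5a3, the polyprenol reductase, had the lowest at -0.08, and its second probe gave 0.005. The 9 genes of this list had a median of -0.02, with 4 above 0 and 5 below. In the supply of sugar nucleotides, Mpi, the mannose phosphate isomerase, had the highest log2 ratio of 10 genes, 0.12, and Gmppb, which makes GDP-mannose, the lowest, -0.06. The median was -0.02, with 4 above 0. Pgm3, which makes a precursor of UDP-N-acetylglucosamine and is named here after its values were seen, had 0.03 from its brighter probe, while its second probe, with a normal glucose signal of 188, gave -0.93.

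After assembly the picture was the same. The 12 subunits of the oligosaccharyltransferase, which transfers the finished sugar to protein, had a median of 0.01, with 7 above 0 and 5 below. Ddost was the lowest at -0.21, from 16871 in normal and 13815 in high glucose, and the catalytic subunit Stt3a the highest at 0.08. Among 10 genes that trim the sugar or read it, the median was 0.04, with 8 above 0. Uggt1, which puts a glucose back on misfolded glycoproteins, was the highest at 0.26 from 32625 and 37039, but its second probe gave -0.19, from a normal glucose signal of 945. Edem3, of the degradation branch, was the lowest at -0.02. The 9 Golgi enzymes had a median of -0.01, with 3 above 0, and the lowest was Mgat4b at -0.16. With each array centred on its median, all these medians would lie about 0.06 lower, as does that of all genes. The counts above 0 would fall too, because most of those genes lay within 0.06 of 0.

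**Figure D5:**
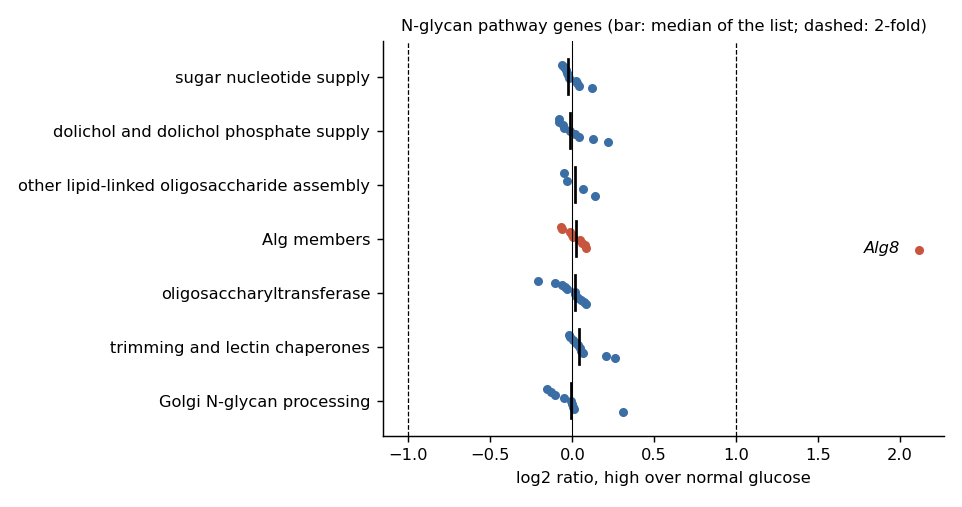
Log2 ratio of high over normal glucose for each measured gene of the 10 Alg members (red) and of the 6 lists of neighbouring steps (blue), with the median of each list as a bar and 2-fold dashed. Alg8 is the single point past 2-fold, and the 54 genes of the other lists lie between -0.21 and 0.31.

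The genes that lie beside Alg8 on its chromosome did not share its ratio. The nearest measured genes before it were Kctd21, with signals of 604 in normal and 523 in high glucose and a log2 ratio of -0.13, and Usp35, with 62.8 and 53.6 and -0.15. Those after it were Ndufc2, a subunit of respiratory complex I, at -0.03, and Kctd14 at 0.06. They were looked up after the Alg8 value was known.

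The arrays themselves were alike, with 0 saturated gene spots; of 59305, 56.3% exceeded background clearly in normal glucose and 57.6% in high glucose. Of 10 pericyte markers 9 were measured, with log2 ratios from -0.45 for Abcc9 to 0.58 for Rgs5. Abcc9 and Rgs5 were dim, at 144 and 93.9 in normal glucose, and Kcnj8 was below that detection limit on both arrays. All 4 smooth muscle and all 4 fibroblast markers were measured too, as were 3 of 5 endothelial, 3 of 4 immune and 2 of 4 epithelial ones, so these counts do not identify the cells. The endothelial genes Cdh5 and Tek and the epithelial genes Epcam and Cdh1 were below it on both. The immune gene Cd68 had no named probe. Named after their values were seen, endothelial Kdr was bright, at 7379 in normal and 7075 in high glucose. Its second probe, at 1373 in normal glucose, gave a log2 ratio of -0.27. Pecam1 and Vwf, the other measured endothelial genes, were dim, at 82.9 and 74.0 in normal glucose. Epithelial Krt14, counted as measured, was dim at 29.8 in normal glucose. Marker ratios were not set against the Alg genes, and the part of cell composition in the Alg8 value was not tested. In bulk RNA, fewer cells of a type and less RNA per cell cannot be told apart.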

How the data were processed

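Values were taken from 2 Agilent 1-colour scanner files, 1 per condition, each of RNA pooled from 3 samples. Per the file headers, the deposited processed signal is a linear intensity made with Feature Extraction 11.5.1.1, background-subtracted and detrended within the array; the submitters' processing notes name version 9.3.2.1, and which is right is not settled here. Spot flags, 0 or 1, were likewise deposited by the authors in those files. In the deposited value table the authors gave the same intensity, unlogged and unscaled: 55249 of 55249 probes printed once matched within a relative tolerance of 0.0001, with column medians of 49.6 for normal and 48.9 for high glucose.

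The log2 signals of 59305 gene spots were averaged per probe, 3671 control spots being left out, and scaled by subtracting the 75th percentile of the array's 55681 probes. Low signals are replaced by small positive values in that software, so dim ratios carry little information. Flagged spots were kept, and left out as an alternative. RefSeq accessions without versions named 27509 probes through the gene table of GRCm38.p6, and 28172 stayed unnamed; the array design names mm9, so no coordinates of probes or whole genes are given, and promoter stretches carry the GRCm38.p6 positions of the RefSeq table. A gene was read by its brightest probe that was well above background, in at least 0.5 of its spots, and unsaturated on both arrays. The scanner errors of both spots were combined as the root of their summed squares after scaling.

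With 1 array per condition no test was run. Members and lists were chosen with earlier results of these data known. Named genes were all 10 members and, in each list, the highest, the lowest and any past 2-fold; others are named as chosen after their values were seen, or as pathway context. The counting step was tested on simulated data. Normexp was run on the median spot signal with limma 3.58.1, in place of the mean signal, which was not used here. Python 3.11.15, numpy 2.4.6, pandas 2.3.3, scipy 1.17.1 and R 4.3.3 were used.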

Additional observations from a re-analysis of the deposited data

How the results depend on the processing

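The 10 alternatives were other scalings, 2 background corrections, no filter on dim probes, the median over probes, flagged spots left out, a position trend removed and the deposited value table. Under all 10, Alg8 was the only Alg gene past 2-fold. Its log2 ratio lay between 2.01 and 2.12, or 4.03-fold to 4.36-fold. Some alternatives could hardly change it, because Alg8 has 1 probe, well above background and without a flag. These were no filter on dim probes, the median over probes and flagged spots left out. The deposited value table holds the same intensities, so its result was fixed in advance too. The lowest value, 2.01, came with normexp, whose offset of 50 by construction shrinks ratios. With each array centred on its median, Alg8 had 2.05 and the median of the 10 genes was -0.037 in place of 0.024; that scaling moves all genes alike. The other 9 genes gave 90 values between -0.13 and 0.11, of which 9 moved by more than the SD of repeat spots of like brightness. The Alg8 ratio ranked 8th of all genes with the main scaling and 3rd with normexp and with median pixels; with no filter on dim probes it ranked 231st of 20887. No replicate could be left out, and no paired analysis was possible because each condition has 1 array. Each condition has 1 pooled array, Alg8 has 1 spot per array and no further probe, and Alg12 and the dimmer probe of Alg6, though well above background by the scanner's flag, were dim, at 134 and 62.3 in normal glucose.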
